A study of Mus musculus with 6 samples.

Results

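The collagen genes of mouse were taken as all gene names that consist of Col, a number, the letter a and a number, and 42 of the 19613 genes with values met this rule. They comprised 11 fibrillar collagens, 8 basement membrane collagens and 23 others. The samples were embryoid bodies containing motor neurons, which are cell aggregates grown from HBG3 HB9 mouse embryonic stem cells that carry a fluorescent reporter of a motor neuron gene. This is the labels' name for the line, which the methods spell HGB3. All 6 were exposed to blood fluid from strain B6CBA-Tg(HDexon1)62Gpb/3J, a mouse model of Huntington's disease that carries a fragment of the human huntingtin gene, and the methods describe the donors as male carriers without symptoms yet. The labels call the fluid plasma and the title of the series calls it serum. In the study, these samples tested whether an assay built on serum from a model of amyotrophic lateral sclerosis was specific to that disease. All 6 arrays belong to 1 group, numbered as replicates 2, 4, 5, 6, 7 and 8, and control arrays were not analysed here. The values therefore describe levels and their variation between arrays, and no response to the fluid. The labels name neither separate cultures nor batches, so p-values measure the spread between these arrays, which may be technical.

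Collagens are extracellular proteins of 3 chains wound into a triple helix, either of identical chains or of chains from different genes. Fibrillar collagens such as types I, II and III pack side by side into the cables that give skin, bone and cartilage their strength, and types V and XI set the diameter of these fibrils. Type IV chains instead join at their ends into the sheet-like network of the basement membrane, together with laminins, nidogens and perlecan, and types XV and XVIII are linked to that layer. The remaining types decorate fibrils, span cell membranes or form short networks and beaded filaments. In the neural tube, basement membranes border the neuroepithelium, whereas fibrillar collagens are mainly products of the surrounding mesenchyme and cartilage.

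Levels are given as log2 intensity. The reference within each array was the 95th percentile of its 1032 olfactory receptor genes, a family active mainly in the nose, and this array background ranged from 7.26 in replicate 8 to 7.60 in replicate 5. A collagen was called above or below background when limma's test of the difference, adjusted by the Benjamini-Hochberg method over all genes, gave an adjusted p under 0.05. Intensities of different genes also depend on their probes, so their order ranks signal and not transcript amounts. Of the 42 collagens, 33 (78.6%) were above background, against 62.6% of all genes. A further 6 were not separated from it and 3 were below it. With the 99th percentile as the reference, 12 collagens (28.6%) stayed above, against 43.7% of all genes, so collagens were common above the lower bar and less so above the higher one.

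By class, 10 of 11 fibrillar, 6 of 8 basement membrane and 17 of 23 other collagens were above background. The median of the mean levels was 8.29 for fibrillar, 7.90 for basement membrane and 8.09 for other collagens, beside 8.26 for all genes. Only Col8a2 and Col2a1 exceeded 75% of all genes in mean level.

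**Figure D1:**
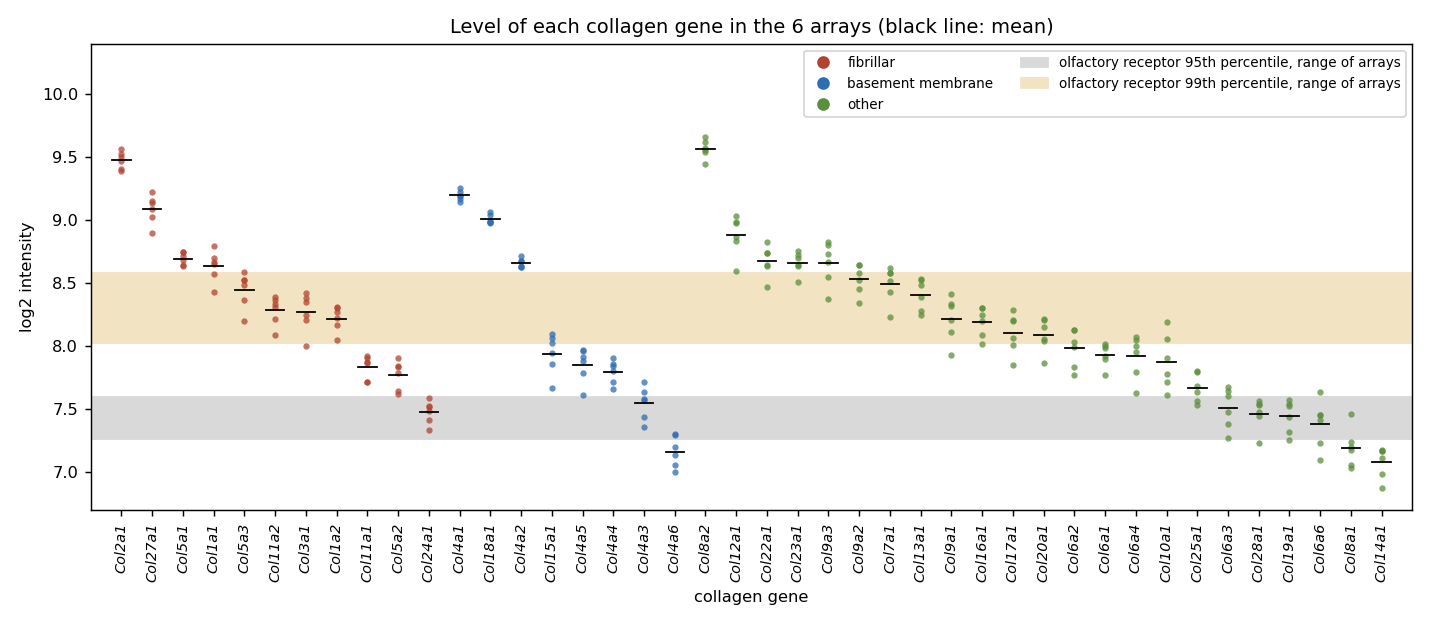
Log2 intensity of each of the 42 collagen genes in the 6 arrays (points) with the mean (black line), grouped by class and ordered by mean. The grey band is the range over arrays of the 95th percentile of the olfactory receptor genes and the tan band that of the 99th percentile. Col2a1, Col27a1, Col5a1, Col4a1, Col18a1, Col4a2, Col8a2 and Col12a1 lie above both bands in every array.

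The fibrillar class was led by Col2a1, which encodes the chain of the cartilage and notochord collagen type II. In replicates 2, 4, 5, 6, 7 and 8, the order kept below, Col2a1 had log2 intensities of 9.53, 9.39, 9.56, 9.48, 9.51 and 9.41. All 6 values lay above the array background, by 1.99 ± 0.049 on average (log2 difference ± SE, limma adjusted p = 3.3e-12). Col27a1, a fibrillar collagen of developing cartilage, had 9.09, 9.03, 9.23, 9.15, 9.14 and 8.90. Col5a1, which regulates fibril assembly, had 8.69, 8.65, 8.75, 8.75, 8.72 and 8.64 and differed by only 1.08-fold between its highest and lowest array.

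The chains of the most abundant fibrils of connective tissue were lower. Col1a1, the major chain of type I collagen, had 8.66, 8.57, 8.79, 8.70, 8.67 and 8.43, and its partner Col1a2 had 8.23, 8.17, 8.30, 8.31, 8.27 and 8.05. Col3a1, the chain of type III, had 8.25, 8.21, 8.38, 8.42, 8.35 and 8.0. All 3 were above background in every array and lowest in replicate 8. Col11a2 had 8.31, 8.21, 8.37, 8.39, 8.34 and 8.09, and Col11a1 had 7.87, 7.72, 7.88, 7.92, 7.91 and 7.72. Both encode chains of type XI, the collagen at the core of type II fibrils. Col5a2, a partner of Col5a1, had 7.79, 7.65, 7.84, 7.84, 7.90 and 7.63, and Col5a3 averaged 8.45. Col24a1 was the fibrillar collagen not separated from background, with 7.49, 7.42, 7.59, 7.53, 7.52 and 7.33 (adjusted p = 0.85), and it exceeded the background of its own array in 2 of 6.

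Among basement membrane collagens, the chains of the ubiquitous type IV heterotrimer and Col18a1 gave the highest signal of the class. Col4a1 had 9.20, 9.14, 9.17, 9.20, 9.26 and 9.23, and Col4a2 had 8.68, 8.63, 8.64, 8.67, 8.72 and 8.63. Col18a1, the precursor of endostatin, had 8.98, 9.05, 9.07, 9.0, 8.98 and 8.98. These 3 genes spanned between 1.06-fold and 1.08-fold from the lowest to the highest array, and Col4a2 and Col18a1 had the smallest SDs of all collagens above background, at 0.034 and 0.037.

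The other type IV chains, which build the specialised networks of kidney, eye and muscle, were near background. Col4a5 and Col4a4 averaged 7.85 and 7.80 and were called above it. Col4a3 was not separated, with 7.57, 7.44, 7.72, 7.64, 7.59 and 7.36 (adjusted p = 0.17), and Col4a6 was below it at a mean of 7.17. Col15a1, a relative of Col18a1, had 7.94, 7.86, 8.10, 8.06, 8.03 and 7.67.

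The promoters of Col4a1 and Col4a2 are shown because this head-to-head pair is a textbook case of chains made from 1 shared control region, and that of Col1a2 because its chain pairs with a gene elsewhere in the genome. The windows hold 250 bases before the annotated start and 50 from it, 5′ to 3′ on the strand of the gene, from RefSeq on GRCm38.p6. Capitals mark matches to CCAAT or its reverse complement ATTGG, and to GGGCGG or its reverse complement CCGCCC. Col4a1 lies at chr8:11312777-11313076 on the minus strand, Col4a2 at chr8:11312555-11312854 on the plus strand and Col1a2 at chr6:4505368-4505667 on the plus strand.
Col4a1: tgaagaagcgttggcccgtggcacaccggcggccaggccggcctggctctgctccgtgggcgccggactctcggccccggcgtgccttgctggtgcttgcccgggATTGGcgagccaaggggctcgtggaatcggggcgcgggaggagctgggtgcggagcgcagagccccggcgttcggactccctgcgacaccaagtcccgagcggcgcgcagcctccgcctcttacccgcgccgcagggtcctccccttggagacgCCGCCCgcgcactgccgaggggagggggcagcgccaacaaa
Col4a2: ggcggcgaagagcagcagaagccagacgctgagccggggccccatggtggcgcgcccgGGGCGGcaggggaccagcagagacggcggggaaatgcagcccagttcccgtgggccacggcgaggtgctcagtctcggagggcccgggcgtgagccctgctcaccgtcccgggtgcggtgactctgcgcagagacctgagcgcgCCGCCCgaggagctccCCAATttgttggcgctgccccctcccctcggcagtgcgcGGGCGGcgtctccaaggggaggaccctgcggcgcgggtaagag
Col1a2: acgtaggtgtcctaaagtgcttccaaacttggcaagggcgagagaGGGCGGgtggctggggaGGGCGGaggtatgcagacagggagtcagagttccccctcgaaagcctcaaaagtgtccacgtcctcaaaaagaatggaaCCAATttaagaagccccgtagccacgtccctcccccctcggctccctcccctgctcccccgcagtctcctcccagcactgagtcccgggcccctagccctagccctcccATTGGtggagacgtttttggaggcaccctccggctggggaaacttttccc
The windows of Col4a1 and Col4a2 share 78 bases, chr8:11312777-11312854, read on opposite strands. Their annotated starts lie 21 bases apart, each inside the transcript of the other gene, so the transcripts overlap there and no gap separates them. A window was matched for 34 of the 42 collagens, some with more than 1 start, giving 37 windows. GGGCGG on either strand occurred in 22 of these 37 (59.5%) and in 35.7% of all 32851 windows. CCAAT on either strand occurred in 13 (35.1%) against 37.4%, and TATAAA in 5 (13.5%) against 13.6%. Matches of each motif were counted on their own, whether or not they shared letters with another, and a match is a run of letters and not a binding site.

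The highest collagen of all was Col8a2 of the class of others, a short-chain collagen of the corneal endothelial membrane, with 9.54, 9.56, 9.66, 9.57, 9.62 and 9.45. It exceeded the array background by 2.08 ± 0.046 (log2 difference ± SE, adjusted p = 1.5e-12), while its partner chain Col8a1 averaged 7.20 and was below background. Col12a1, which decorates type I fibrils, had 8.98, 8.98, 8.83, 8.87, 8.60 and 9.04. Its highest value was in replicate 8 and its lowest in replicate 7, and no other of the 42 collagens was highest in replicate 8. Col22a1, a collagen of tissue junctions, had 8.64, 8.64, 8.83, 8.74, 8.74 and 8.47.

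The type IX chains coat type II fibrils in cartilage. Col9a1 had 8.21, 8.11, 8.33, 8.41, 8.32 and 7.93, Col9a2 had 8.53, 8.46, 8.64, 8.65, 8.58 and 8.35, and Col9a3 had 8.67, 8.55, 8.83, 8.81, 8.74 and 8.38. In all 3 the value of replicate 8 was the lowest and that of replicate 4 the next. The largest SD among collagens above background, 0.22, was that of Col10a1, the collagen of hypertrophic cartilage, with 7.72, 7.91, 7.78, 8.06, 8.19 and 7.61. Col9a1 and Col6a4 followed, at SDs of 0.18 and 0.17.

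Type VI collagen forms beaded filaments from chains of several genes. Col6a1 had 8.0, 7.90, 8.02, 7.98, 7.93 and 7.77, Col6a2 had 8.0, 7.84, 8.13, 8.13, 8.03 and 7.77, and Col6a4 had 7.96, 7.80, 8.08, 8.05, 8.01 and 7.63. The long chain Col6a3 was not separated from background, with 7.48, 7.38, 7.64, 7.68, 7.61 and 7.27 (adjusted p = 0.63), and neither was Col6a6. All 4 transmembrane collagens were above background, from Col23a1 at a mean of 8.66 through Col13a1 at 8.41 and Col17a1 at 8.10 to Col25a1 at 7.67, the nearest to background of those called above it. Col7a1, the anchoring fibril collagen of skin, averaged 8.50, and the fibril-associated Col16a1 and Col20a1 averaged 8.19 and 8.09. Col28a1, with 7.54, 7.44, 7.48, 7.56, 7.54 and 7.24 (adjusted p = 0.64), and Col19a1 were not separated from background, and Col14a1 was the lowest collagen at 7.08.

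The spread over arrays was then described by class. Among collagens above background, the median SD was 0.11 for fibrillar, 0.067 for basement membrane and 0.13 for other collagens, beside 0.074 for all genes above background. The order of the classes depended on the reference, since relative to the array background the medians were 0.038, 0.082 and 0.050. Subtraction gives flat genes the spread of the background. The SDs of Col4a1, Col4a2 and Col18a1 went from between 0.034 and 0.040 to between 0.11 and 0.14. With no filter on low values the basement membrane median was 0.11. The SD was larger than the median of the 200 genes nearest in mean level for 24 of the 33. No class difference in SD was tested.

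The arrays were next compared through the collagens. Of the 42 genes, 36 had their lowest value in replicate 8. Among the 33 above background the number was 28, while 25.3% of all genes above background were lowest in that array. The average of the 33 genes was lowest in replicate 8, at 8.23, and highest in replicate 5, at 8.49. Replicate 8 also had the lowest array background, at 7.26, followed by 7.42 in replicate 4 and 7.48 in replicate 2, with replicates 5, 6 and 7 between 7.58 and 7.60.

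Most collagens above background followed this value from array to array. It describes the upper end of the olfactory receptor genes, which themselves had a median r of only 0.32 with it. Pearson's r with the olfactory receptor 95th percentile was over 0.8 in 27 of the 33 collagens above background (81.8%), against 14.2% of all genes above background. Among the 200 genes nearest to each collagen in mean level, the share averaged 24.6%, with a range of 4.5% to 43.0%. The median slope of the collagens on the background was 0.88 log2 units per unit, against -0.066 for all genes above background. Without replicate 8 the number was 25 of 33, against 10.1% of all genes, and without replicates 4 and 8, which lay farthest from the median background, it was 22, against 11.9%. With the median of the olfactory receptor genes as the array background in place of the 95th percentile, the number was 15.

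With 6 arrays there are 720 pairings, so an exact permutation test cannot go below p = 0.0014, and over the 12278 genes the smallest adjusted p was 0.10. Accordingly 0.0% of genes and 0 collagens passed for Pearson's r, and likewise 0 collagens for Spearman's rho. At an unadjusted exact p under 0.05 with a positive r there were 27 collagens and 13.3% of genes. The values closest to the background were those of Col15a1, with r = 0.996 and rho = 1.0, Col1a2, with r = 0.992 and rho = 0.94, and Col7a1, with r = 0.991 and rho = 1.0. Their unadjusted two-sided exact permutation p for r were 0.0014, 0.0028 and 0.0014. Measured relative to the array background, the median SD of the 33 collagens was 0.049, against 0.12 before, whereas for all genes above background it was 0.15, against 0.074 before. This contrast restates the r and slopes given above and is no separate result. Subtracting a reference with an SD of 0.13 raises the SD of genes unrelated to it and lowers that of genes that follow it.

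The 6 collagens with an r of 0.8 or less were named because they stood apart after their values were seen. They were Col4a1 with r = -0.015, Col18a1 with 0.29, Col4a2 with 0.55, Col10a1 with 0.67, Col2a1 with 0.75 and Col12a1 with -0.72. By class, the number with an r over 0.8 was 9 of 10 for fibrillar, 3 of 6 for basement membrane and 15 of 17 for other collagens above background. The basement membrane collagens that followed the background were Col15a1, Col4a5 and Col4a4, the lower ones of the class. Col8a2 and Col27a1, which were among the highest collagens, followed it at r = 0.91 and 0.98. Excluding replicate 8, r fell to 0.74 for Col8a2 and to 0.50 for Col6a1.

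**Figure D2:**
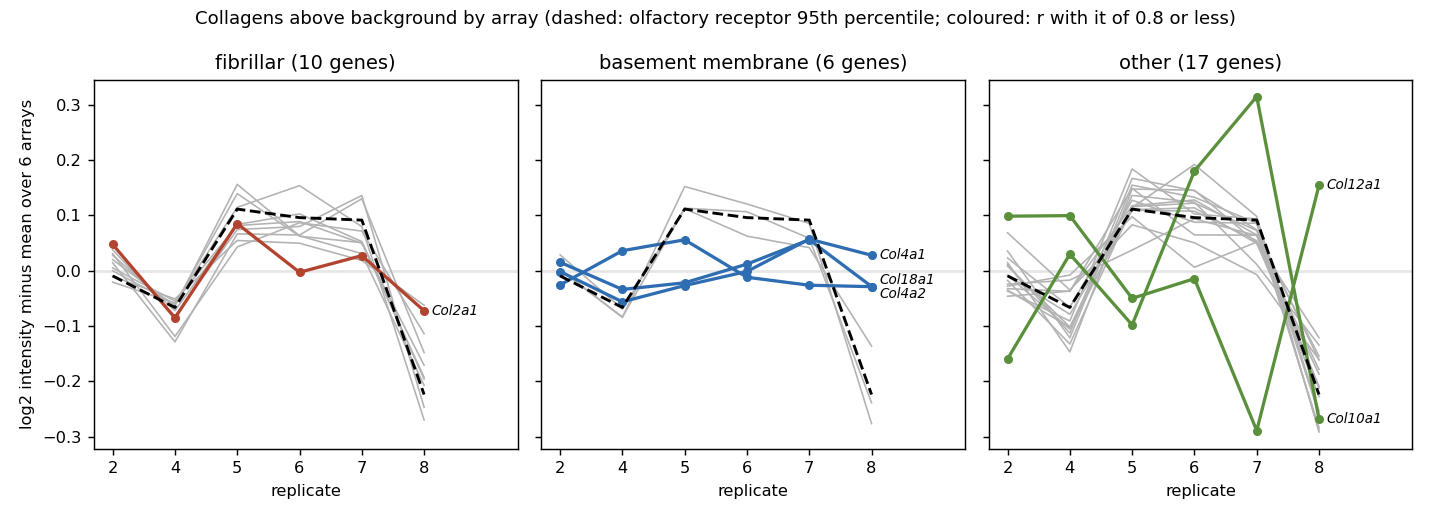
Log2 intensity of each collagen above background in each array, minus the mean of that gene over the 6 arrays, by class (grey or coloured lines). The dashed line is the olfactory receptor 95th percentile treated the same way, and lines only join the values of 1 gene, since replicates have no order. Most grey lines run along the dashed line, with their lowest point in replicate 8, while the coloured genes, those with an r of 0.8 or less, depart from it.

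Genes of the collagen pathway were looked at in the same way. Of the biosynthesis list, the enzymes and chaperones that modify and fold the chains, all 17 matched genes were above background, led by Ppib at 11.99 and the collagen chaperone Serpinh1 at 11.81, with Plod2, a lysyl hydroxylase, at 11.16, and 0 of the 17 had an r over 0.8 with the array background. The prolyl hydroxylase family genes P3h2 and P3h4 ran against it, at r = -0.89 and -0.87, where 9.85% of all genes above background had an r under -0.8. Of the genes for processing and crosslinking, 8 of 13 were above background, with Bmp1, the procollagen C-proteinase, at 11.27, Loxl2 at 10.15 and Furin at 9.08, and 3 of these 8 exceeded an r of 0.8, namely Loxl1, Pcolce and Loxl3. Among collagen receptors 6 of 9 were above background, led by Adgrg1 at 12.37, Itgb1 at 10.56 and Ddr1 at 10.21, and none of the 6 exceeded an r of 0.8. For breakdown enzymes and their inhibitors the counts were 8 of 13, with Timp3 at 10.69, Mmp15 at 9.42 and Mmp2 at 9.24 the highest, and 1 of the 8, Timp4, exceeded an r of 0.8. Across all of these, only the 62.6% of all genes above background and the 14.2% with an r over 0.8 serve as a reference, and no difference between lists was tested. The median of the mean levels was 9.36 for the biosynthesis list and 8.15 for the 42 collagens. Of the 200 genes nearest in level, 43.0% had an r over 0.8 for Col10a1 at 7.88 and 11.5% for Col4a1 at 9.20. The counts of the lists are therefore not matched in level with that of the collagens.

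Laminins, nidogens, perlecan and other partners of type IV collagen in the basement membrane formed the next list. Of its 17 genes, 12 were above background, against 62.6% of all genes. They were led by Sparc at 11.62, Agrn at 11.26 and Pxdn, which crosslinks type IV networks, at 10.66. An r over 0.8 with the array background was found in 2 of the 12, Lamb3 and Lamc3, against 14.2% of all genes above background. Both counts were near these shares over all genes. Pxdn had the opposite sign, at r = -0.99, and Agrn had r = -0.78. The perlecan gene Hspg2 had 9.16 ± 0.019 and the laminin chains Lama1 and Lamc1 had 9.58 ± 0.049 and 9.74 ± 0.049 (log2 intensity, mean ± SD, n = 6).

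**Figure D3:**
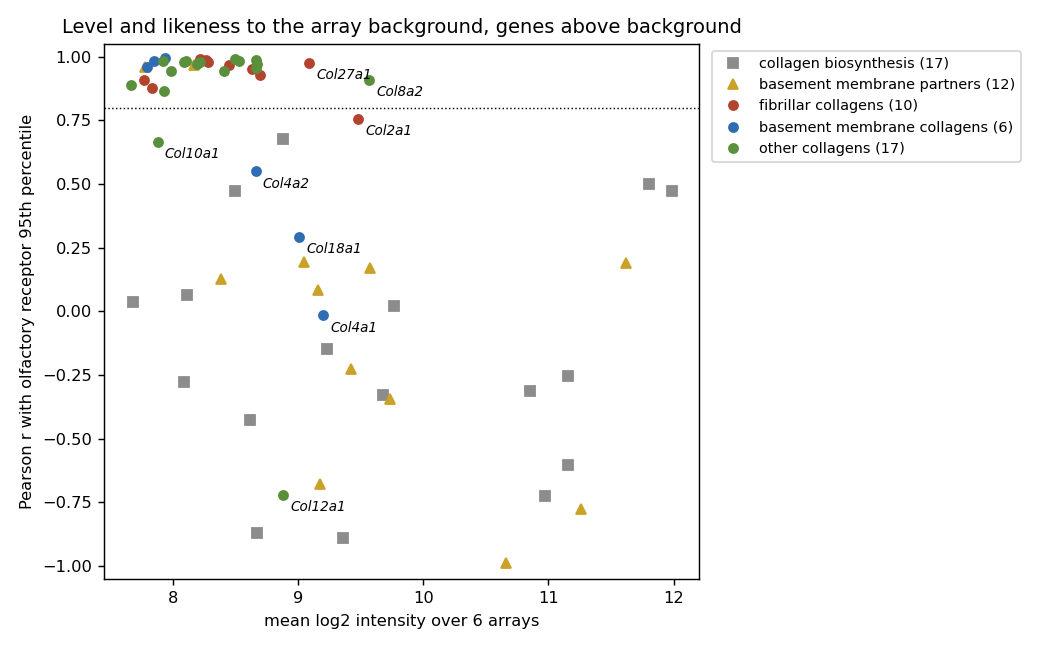
Pearson r over the 6 arrays with the olfactory receptor 95th percentile (vertical axis) against mean log2 intensity (horizontal axis), for genes above background. Circles are collagens by class, squares the biosynthesis list and triangles the basement membrane partners. Of the 33 collagens, 27 lie above the dotted line at 0.8, together with 0 of 17 biosynthesis genes and 2 of 12 basement membrane partners. These counts are not matched for level. Over all matched genes, the median level was 9.36 for biosynthesis and 9.05 for partners, against 8.15 for the 42 collagens.

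Covariation between collagens was then described by class. Over the 528 pairs of collagens above background, the mean r over arrays was 0.69 and 65.9% of pairs exceeded 0.8, against a mean of 0.0042 and 5.05% over all pairs of genes above background. Within the fibrillar class the mean r was 0.89, and 40 of 45 pairs exceeded 0.8. Within the basement membrane class it was 0.30, with 3 of 15 pairs over 0.8, and within the others 0.70, with 99 of 136. Between classes the mean r was 0.79 for fibrillar with other, 0.60 for fibrillar with basement membrane and 0.52 for basement membrane with other collagens. These pairs share arrays and genes, so the means are descriptions.

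The mean correlations were smaller with the array background held fixed. This partial correlation was chosen after the data were seen, when 27 of the 33 collagens had an r over 0.8 with that background. Removing such a reference lowers the mean r whatever the source of the shared movement. The fall therefore restates the r with the background and is no separate result. With the olfactory receptor 95th percentile held fixed, the mean partial correlation was 0.13 over all pairs, 0.15 within fibrillar, -0.054 within basement membrane and 0.14 within other collagens. The mean r within basement membrane collagens was also negative with each array centred on its median, at -0.046, and among the 3 genes above the 99th percentile, at -0.22. Whether the common movement came from the cells or from the measurement was not tested, and in bulk RNA fewer cells of a type and less RNA per cell cannot be told apart.

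**Figure D4:**
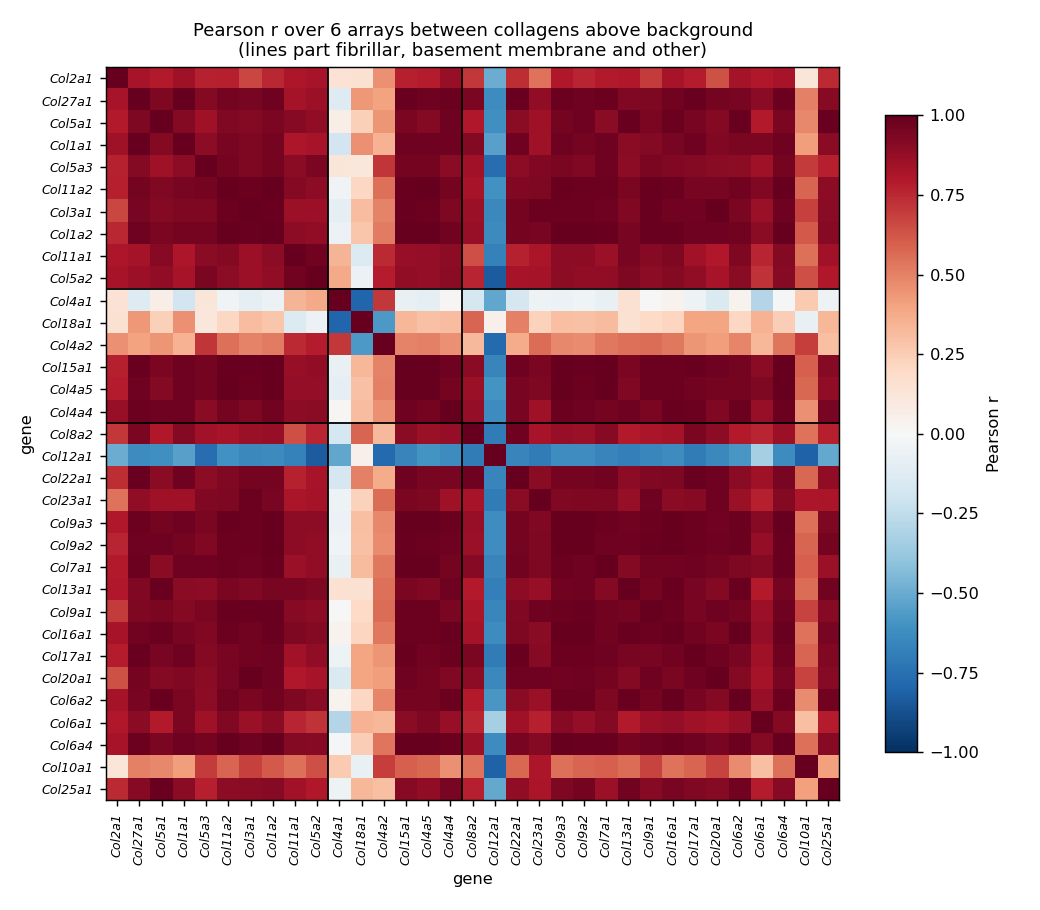
Pearson r over the 6 arrays between the 33 collagens above background, ordered by class and mean level, with black lines between classes. Red cells are positive and blue cells negative. Most genes form a red block across all classes, with a mean r of 0.69, crossed by the pale or blue bands of Col4a1, Col18a1, Col4a2, Col12a1 and Col10a1.

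Col12a1 was the collagen that ran against the others, with a mean r of -0.62 with the other 32 and an r of -0.81 with Col10a1. Col4a1 averaged -0.027 and Col18a1 averaged 0.20. Col4a1 and Col18a1 moved in opposite directions, at r = -0.79, and Col4a2 and Col18a1 had r = -0.57. These pairs were singled out after their values were seen and carry no test.

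Chains that assemble into 1 molecule or 1 fibril were compared in pairs. Of 17 such pairs, 12 had both genes above background, and r exceeded 0.8 in 10 of them, against 65.9% of all pairs of collagens above background and 5.05% of all gene pairs. By a two-sided exact permutation test adjusted over the 12 pairs, 9 passed for Pearson's r and 6 for Spearman's rho. No share of other collagen pairs passing this test is given, so the passes do not set partner chains apart from other collagens. Several of the pairs also share a gene. The type I chains Col1a1 and Col1a2 had r = 0.96 and rho = 0.94 (exact p = 0.0042 and 0.017, adjusted p = 0.010 and 0.033). With the 2 arrays most distant from the Col1a1 median removed, r was 0.96, while with the array background held fixed the partial r was 0.35, and between the levels measured relative to that background r was 0.41. Col9a2 and Col9a3 had r = 0.996 and rho = 0.94 (exact p = 0.0028 and 0.017, adjusted p = 0.010 and 0.033), and r = 0.99 without the 2 farthest arrays. Among the other passing pairs r ranged from 0.87 for Col6a1 and Col6a2 to 0.99 for Col9a1 and Col9a2. Without the 2 farthest arrays, the r of Col5a1 and Col5a2 dropped from 0.88 to 0.32. That of Col11a1 and Col11a2 dropped from 0.92 to 0.64, and that of Col6a1 and Col6a2 from 0.87 to 0.67. These relations thus depended in part on the arrays removed, and removing the outermost arrays also narrows the range of values. With each array left out in turn, the r of Col5a1 and Col5a2 stayed between 0.81 and 0.96. The number of passing pairs was 5 with each array centred on its median and 1, Col4a1 with Col4a2, relative to the array background. That r is largely set by the background subtracted from both genes, as described below. It was 6 to 8 when replicate 2, 5, 6 or 7 was left out and 0 when either replicate 4 or replicate 8 was left out. With 5 arrays the smallest exact permutation p was 0.0083, and without replicate 4 or replicate 8 the smallest adjusted one was 0.05, so no pair came under the threshold. Unadjusted, 7 pairs without replicate 4 and 6 without replicate 8 did. In the 9 pairs r still ranged from 0.84 to 0.996 without replicate 4 and from 0.76 to 0.99 without replicate 8.

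The pairs that did not pass were Col4a1 with Col4a2, Col2a1 with Col11a1 and Col15a1 with Col18a1. Col4a1 and Col4a2, whose promoters overlap as printed above, had r = 0.71 and rho = 0.60 (exact p = 0.12 and 0.24, adjusted p = 0.13 and 0.26). Leaving out each array in turn moved r between 0.34 and 0.98, and with the 2 arrays most distant from the Col4a1 median removed it was -0.17. With the array background held fixed, their partial r was 0.86, and the other pair over 0.8 was Col9a2 with Col9a3, at 0.88. Between levels measured relative to the array background, r was 0.99 for Col4a1 and Col4a2 and -0.013 for Col9a2 and Col9a3. The same background, with an SD of 0.13 over arrays, was subtracted from both genes of a pair. Col4a1 and Col4a2 had SDs of only 0.040 and 0.034, so their r of 0.99 is largely set by that subtraction. For Col1a1 and Col3a1 the partial r was -0.16, beside an r of 0.93. Col2a1 and Col11a1 had r = 0.81 and rho = 0.49 (exact p = 0.075 and 0.36, adjusted p = 0.090 and 0.36), with r = -0.81 without the 2 farthest arrays. Col15a1 and Col18a1 had r = 0.33 and rho = 0.60 (exact p = 0.53 and 0.24, adjusted p = 0.53 and 0.26), with r = 0.72 without the 2 farthest arrays.

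**Figure D5:**
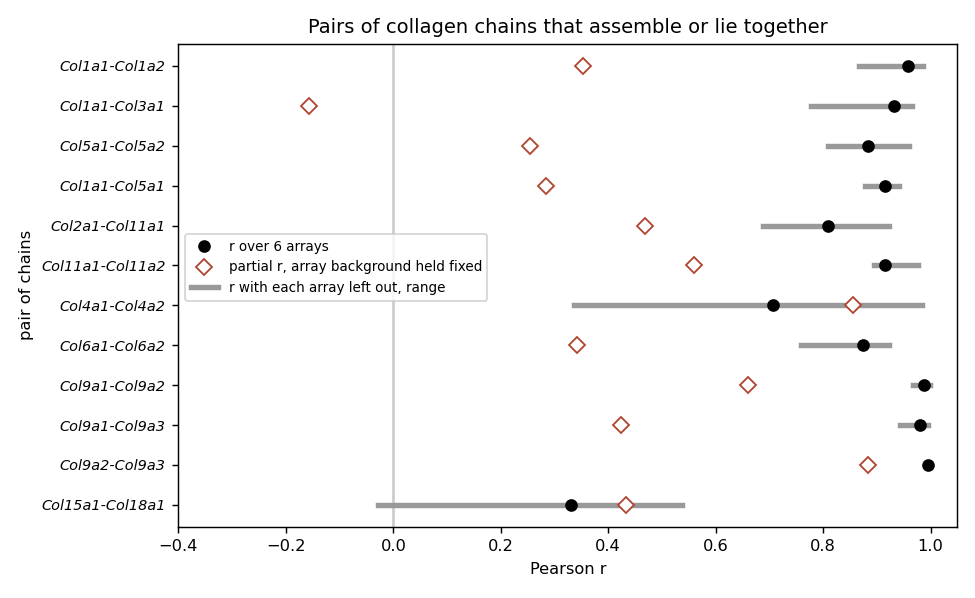
Pearson r over the 6 arrays for the 12 pairs of partner chains (black circles), its range when each array is left out in turn (grey bars), and the partial r with the olfactory receptor 95th percentile held fixed (open diamonds). In 10 pairs the circle lies over 0.8, and in 2 pairs, Col4a1-Col4a2 and Col9a2-Col9a3, the diamond does.

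Col4a1 was also set against the basement membrane partners it is laid down with. Of the 12 above background, 1 had an r over 0.8 with it, Nid2, a nidogen that ties laminin to type IV collagen, at r = 0.95 and rho = 0.94, against 2.8% of all genes above background. Agrn followed at r = 0.60 and Sparc at 0.57, and Lama5 had r = -0.85. With Col4a2, 0 of the 12 exceeded 0.8. These values are descriptions over 6 arrays.

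Markers of the cells that could supply collagen were set beside these levels. As a reference for all marker lists, 62.6% of all genes were above background, and 14.2% of those had an r over 0.8 with it. The lists are short, so a count near these shares does not show that a cell type was present. Motor neuron markers were above background in 5 of 5, led by Isl1 at 10.33, Chat at 9.42 and Slc5a7 at 8.99, and floor plate markers in 4 of 4, with Shh at 12.10, Ntn1 at 11.76 and Foxa1 at 10.996. Progenitor markers were above background in 4 of 5, led by Sox2 at 11.82, Nkx6-1 at 10.55 and Sox1 at 9.59. None of the genes of these lists above background had an r over 0.8 with the array background, and the means of the 3 lists ranged over arrays from 9.06 to 9.32, from 11.29 to 11.41 and from 9.50 to 9.64. The r of the list mean with the array background was -0.47 for motor neuron, -0.078 for floor plate and 0.043 for progenitor markers.

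Fibroblast and mesenchyme markers were above background in 2 of 8, against 62.6% of all genes. Dcn, a proteoglycan of collagen fibrils, had 12.01 ± 0.058 and Twist2 had 9.26 ± 0.11 (log2 intensity, mean ± SD, n = 6), while Pdgfra, Pdgfrb, Twist1, Prrx1, Lum and Thy1 were below background. All 8 genes of the list together averaged between 7.60 in replicate 8 and 7.85 in replicate 5. For cartilage or notochord the count was 3 of 5, namely Sox9 at 10.55 ± 0.029, T at 8.37 and Matn1 at 7.86. Acan and Comp were below background, and the list averaged between 8.06 in replicate 8 and 8.34 in replicate 6. Primitive or parietal endoderm markers counted 3 of 7, with Gata6, Dab2 and Gata4 between 7.85 and 8.07 and Sox17, Sox7, Afp and Thbd below background, over a range of list means from 7.01 to 7.28.

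Of the remaining lists, endothelium counted 1 of 4 (Cdh5 at 7.72), mural or smooth muscle 2 of 5 (Acta2 at 8.02 and Cspg4 at 7.61) and epithelium 4 of 5 (Cdh1 at 9.20, Krt8 at 8.78 and Krt14 at 8.23). Their list means ranged over arrays from 6.95 to 7.08, from 7.31 to 7.67 and from 8.13 to 8.42, each lowest in replicate 8. An r over 0.8 with the array background was found for 2 of the 3 cartilage or notochord markers above background (T at 0.97 and Matn1 at 0.93, with Sox9 at -0.37). The counts were 1 of 2 for fibroblast (Twist2 at 0.92), 1 of 2 for mural (Cspg4 at 0.94), 1 of 4 for epithelium (Krt14 at 0.89) and 0 for endoderm and endothelium. Each of these counts rests on few genes, beside 14.2% of all genes above background. As list means, r with the array background was 0.97 for cartilage or notochord, 0.93 for endoderm, 0.91 for epithelium, 0.90 for fibroblast, 0.79 for mural and 0.52 for endothelium. These means cover all matched genes of a list, also those below background. In the endoderm list, Sox17, Sox7, Afp and Thbd were below it and had r from 0.87 to 0.91. The part of any of these cell types in the collagen levels was not tested.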

How the data were processed

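RNA from 6 samples of 1 group was hybridised to Affymetrix exon arrays for mouse. Per the study's methods, the authors summarised probes by Robust Multi-array Averaging in Aroma Affymetrix and took the mean over the annotated exons of each gene, and the labels also name Affymetrix Expression Console. The deposited table holds a linear intensity for each gene in each array. The genome build and the arrays normalized together are not given in the sources used here. Per the methods, outlying arrays were removed within each batch of embryoid bodies, which can narrow the spread between those that remain. The table held 0 columns of other samples. Arrays give no counting depth, so their number limits the precision.

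Intensities were taken as log2 with no pseudocount. Each gene was tested against the 95th percentile of the olfactory receptor genes of the same array with limma 3.58.1 (lmFit, eBayes) in R 4.3.3, with Benjamini-Hochberg adjustment over 19613 genes. Correlations used NumPy 2.4.6 and exact permutation tests over 720 pairings, in Python 3.11.15. The functions were tested on simulated data. Replicate numbers only name the arrays. The collagens, classes, pairs and gene lists were chosen with earlier results of these data known. Col6a5, Col21a1 and Col26a1 of the class lists, and Mia3, Lox and Slc18a3 of the other lists, were not analysed here, and 1 further marker list is not reported here. Values in all arrays are given for the 3 highest collagens above background per class, the 3 largest and 2 smallest SDs, partner pairs with both chains above background and the 2 genes nearest to background on each side. Of each list, the 3 highest genes above background are named, or all of them where there were fewer. Promoter windows come from a RefSeq table on GRCm38.p6, used for names and sequence alone, and 8 collagens had no match in it. Alternatives were another background percentile, call rule, scaling, filter, correlation measure and class definition, and leaving out each array.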

Additional observations from a re-analysis of the deposited data

How the results depend on the processing

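The collagen test was repeated under other choices, and the scaling relative to the array background, the partial correlation and every alternative for the tracking of the background were chosen after seeing the data. No call count moved by over 1.5 times except with the 99th percentile as background, which left 12 collagens above it, 4 fibrillar, 3 basement membrane and 5 other. The median SD was 0.049 over all, 0.038 for fibrillar, 0.082 for basement membrane and 0.050 for other collagens relative to the array background. For basement membrane collagens it was also 0.045 after loess, 0.11 with no filter and 0.037 at the 99th percentile, and for fibrillar collagens it ranged from 0.077 to 0.13 with each array left out, the lowest without replicate 8.

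The mean r over all pairs was 0.54 under median centring, 0.13 relative to the array background, 0.13 as a partial correlation, 0.36 at the 99th percentile and 0.62 to 0.7 with each array left out. Within fibrillar collagens it was 0.79, 0.24 and 0.15 under the first 3 of these, 0.80 after loess and 0.82 by Spearman's rho. Within basement membrane collagens the sign turned under median centring (-0.046), at the 99th percentile (-0.22) and as a partial correlation (-0.054). The other values there were 0.37 after loess, 0.13 relative to the array background, 0.45 with no filter, 0.35 by Spearman's rho and 0.42 for type IV chains alone. Within other collagens it was 0.066 relative to the array background, 0.28 at the 99th percentile, 0.14 as a partial correlation and 0.61 to 0.72 with each array left out. For fibrillar with basement membrane collagens it was 0.30 under median centring, 0.28 relative to the array background, 0.68 with no filter, 0.24 at the 99th percentile and 0.16 as a partial correlation. For fibrillar with other collagens it was 0.70 after loess, 0.10 relative to the array background, 0.58 at the 99th percentile, 0.14 as a partial correlation and 0.71 to 0.81 with each array left out. For basement membrane with other collagens it was 0.24 under median centring, 0.11 relative to the array background, 0.61 with no filter, 0.11 at the 99th percentile, 0.47 for type IV chains alone and 0.10 as a partial correlation. The cause of these shifts was not tested.

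The number of passing pairs was 5 under median centring, 1 relative to the array background and 0 to 8 with each array left out, with 0 both without replicate 4 and without replicate 8, where the smallest adjusted p was 0.05. The sign of r turned for Col1a1 and Col3a1 relative to the array background (-0.31) and as a partial correlation (-0.16), and for Col9a1 with Col9a2 (-0.082) and Col9a2 with Col9a3 (-0.013) relative to it. Subtraction assumes a slope of 1 on the background, whereas Col9a1, Col9a2 and Col9a3 had slopes of 1.33, 0.89 and 1.30. The partial r, which fits the slope, was 0.66 for Col9a1 with Col9a2 and 0.88 for Col9a2 with Col9a3. For Col15a1 and Col18a1 it turned under median centring (-0.40), relative to the array background (-0.80) and without replicate 5 (-0.029). The number of collagens with an r over 0.8 with the array background was 24 to 25 under 4 alternatives, 15 with the olfactory receptor median as the array background and 25 to 28 with each array left out. No paired analysis was possible because all arrays belong to a single group. Probes near background bound what can be said of low collagens.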
